A study of Mus musculus with 3 samples.

Results

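The genes described here encode the enzymes that write and erase methyl and acetyl groups on histones in mouse splenic T cells. They were chosen by gene symbol, as every gene of the KDM, KMT, SETD, NSD, EZH, HDAC, KAT, SIRT and PRMT series with a protein-coding transcript, with Kdm5d, Kdm5c and Kdm6a left out by the same rule. Of 79 symbols that fit the pattern, 5 had no protein-coding transcript and 3 were those exceptions, which leaves 71 genes of 21901 with a protein-coding transcript and of 55536 in all. The rule reads gene symbols and transcript classes. Total RNA was sequenced from T cells of the spleen of B6CASTF1/J mice, hybrids of C57BL/6 on the mother's side and CAST/EiJ on the father's, described in the labels as female virgin adults of 66 days, with CD3 named beside the spleen and no treatment given. There were 3 libraries in 1 group, replicates 1, 2 and 3, each made from 300 ng of total RNA to which ERCC standards were added, and they held 16928220, 15036543 and 16247327 estimated counts. The labels tie the 3 biosamples to 1 donor record, so SDs and p-values describe how far these samples differ, which can be technical variation alone. All 10 T-cell markers, among them the CD3 chains and the receptor constant regions, exceeded 10 TPM in every library.

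Lysine methyltransferases, most of them with a SET domain, place methyl groups on residues such as lysine 4, 9, 27 or 36 of histone H3, and lysine demethylases of the Kdm series take them off again. Acetyltransferases of the Kat series and deacetylases of the Hdac and Sirt series do the same with acetyl groups, while the Prmt enzymes methylate arginine. In T cells these enzymes help to set which genes a naive cell can open when it is activated, and several of them also modify proteins other than histones.

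Nearly all of the enzymes were transcribed in these cells. A gene was counted as detected at 1 TPM or more in all 3 libraries (TPM is abundance per transcript length, scaled to a fixed total per library), and 67 of the 71 members reached that level, or 94.4%, beside 44.9% of all protein-coding genes. At 10 TPM or more in every library stood 52 members, 73.2%, beside 25.5% of protein-coding genes. The median TPM over detected members was 23.3, and over all detected protein-coding genes it was 13.6. Together the members summed to 1974, 1905 and 1882 TPM in replicates 1, 2 and 3, which was 0.544% ± 0.006 of the TPM of protein-coding genes (SD, n = 3) and 1.33% ± 0.026 of their estimated counts. In bulk RNA, fewer cells that express a gene and less RNA of it per cell cannot be told apart.

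**Figure D1:**
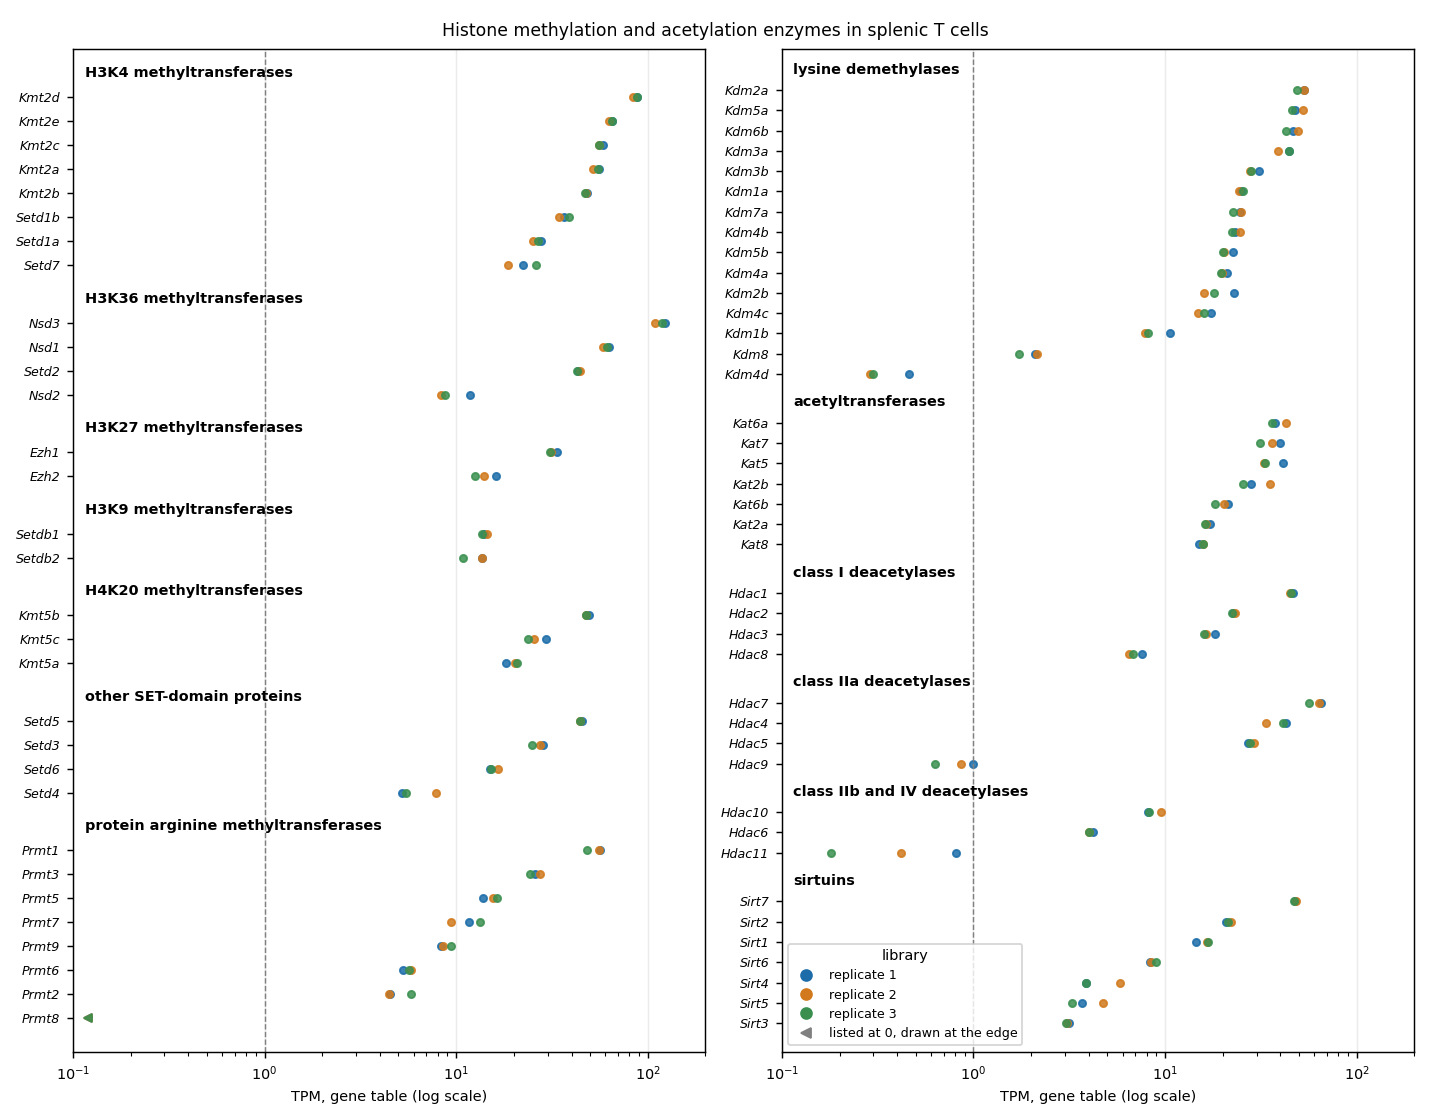
Levels of the 71 enzymes by role. Each point is the TPM of a gene in 1 library on a log axis, the dashed line marks 1 TPM, and a triangle at the edge marks a gene listed at 0. The points lie close together for most genes, Nsd3 is highest at 109 to 123 TPM, and Hdac9, Hdac11, Kdm4d and Prmt8 lie below the line.

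All 8 genes of the list drawn up for H3K4 methylation exceeded 10 TPM. The list had the second highest median level of the 13 roles, 5.69 ± 0.03 on the log2(TPM + 1) scale. Over all detected protein-coding genes that level was 3.86 ± 0.05. Kmt2d, which marks enhancers together with Kmt2c, had 87.3, 83.8 and 88.1 TPM in replicates 1, 2 and 3. Kmt2e, listed here as a relative of the same family and not as a shown writer, had 65.0, 63.1 and 64.8 TPM. Kmt2c itself had 58.5, 55.6 and 56.0 TPM, below Kmt2d in every library. Kmt2a and Kmt2b, the MLL enzymes that act at promoters, followed at 53.9 ± 2.17 and 47.7 ± 0.662 TPM (SD, n = 3). The lowest was Setd7, a mono-methyltransferase that also acts on other proteins, with 22.3, 18.6 and 26.1 TPM. Because its transcript is long, Kmt2d drew more reads than its TPM shows. It took 23980, 19863 and 23151 estimated counts and ranked 12 by counts among all protein-coding genes, and Kmt2a ranked 98.

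The enzymes of H3K36 held the highest member of all and a list level of 5.71 ± 0.02. Nsd3 (ENSMUSG00000054823.16, mm10 chromosome 8, 25601601 to 25719667), which places mono- and dimethyl marks, had 123, 109 and 119 TPM in replicates 1, 2 and 3. Its relative Nsd1 had 62.8, 58.4 and 61.3 TPM. Setd2, the trimethylating enzyme that travels with RNA polymerase II, had 43.2, 44.4 and 42.6 TPM. Nsd2 lay far below the others with 11.8, 8.35 and 8.79 TPM, and its values did not overlap those of any of them.

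Both catalytic subunits of the Polycomb repressive complex PRC2 were present, with Ezh1 above Ezh2 in every library. Ezh1 had 33.7, 31.1 and 30.7 TPM in replicates 1, 2 and 3. Ezh2, the subunit best known from dividing cells, had 16.1, 13.9 and 12.5 TPM. The 2 ranges were apart by more than either spread. Of the 9 PRC2 partners listed, 8 exceeded 10 TPM, led by Aebp2 at 56.7 TPM, and the lowest was Phf19 at 1.45 TPM. Of the H3K9 enzymes that the pattern takes in, Setdb1, which silences retroelements, had 13.9, 14.4 and 13.6 TPM. Setdb2 had 13.7, 13.6 and 10.9 TPM, overlapping Setdb1. Among the H4K20 enzymes, Kmt5b had 49.1, 47.7 and 47.4 TPM. Kmt5c, which like Kmt5b adds the higher methyl states, had 29.3, 25.4 and 23.7 TPM. Kmt5a, the mono-methyltransferase that the others build on, was lowest with 18.3, 20.3 and 20.8 TPM.

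The remaining SET-domain proteins spread widely. Setd5 had 45.2, 44.2 and 44.4 TPM in replicates 1, 2 and 3. Setd3, which methylates a histidine of actin, had 28.5, 27.3 and 24.9 TPM. Setd6, an enzyme that acts on the NF-kappaB subunit RelA, had 15.02, 16.5 and 15.3 TPM. These 3 did not overlap each other, and Setd4 was lowest with 5.21, 7.83 and 5.50 TPM. Among the arginine methyltransferases the level fell off faster, with 3 of 8 below 10 TPM but above 1 TPM in all libraries, 1 more crossing 10 TPM between libraries, and a list level of 3.46 ± 0.15. Prmt1, the main asymmetric enzyme, had 56.5, 55.4 and 48.4 TPM. Prmt3, an enzyme of the ribosomal protein S2, had 25.9, 27.2 and 24.4 TPM. Prmt5, the main symmetric enzyme, had 13.8, 15.5 and 16.2 TPM. Prmt1 thus stood above both in every library. Prmt8, an enzyme of neurons, was listed at 0 in all 3 libraries, for which the limit of 3 counts corresponds to 1.77e-05%, 2.00e-05% and 1.85e-05% of all estimated counts in replicates 1, 2 and 3. The second quantification, described with the sirtuins, assigned it 3, 4 and 3 counts. Such limits and the count intervals given here cover counting error only.

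Of 15 lysine demethylases, 14 were detected. Kdm2a, which removes lower methyl states of H3K36 and binds unmethylated CG, had 53.4, 53.1 and 48.8 TPM in replicates 1, 2 and 3. Kdm5a, an H3K4 trimethyl demethylase, had 47.5, 52.6 and 45.7 TPM. Kdm6b (JMJD3), which removes H3K27 trimethylation, had 46.5, 49.5 and 42.7 TPM. These ranges overlap, so no order among the 3 holds beyond the spread. Kdm3a followed at 42.3 ± 3.05 TPM, and 8 more, including Kdm1a (LSD1) at 24.98 ± 0.627 TPM, lay between 16.1 and 28.96 TPM by their means. Kdm4d was the lowest, with 0.46, 0.29 and 0.30 TPM from 20, 9 and 12 estimated counts, for which exact 95% Poisson intervals ran from 12.2 to 30.9, 4.12 to 17.1 and 6.20 to 20.96.

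All 7 acetyltransferases exceeded 10 TPM in every library. Kat6a (MOZ) had 37.6, 42.7 and 35.99 TPM in replicates 1, 2 and 3. Kat7 (HBO1) had 39.8, 36.3 and 31.5 TPM. Kat5 (TIP60) had 41.2, 32.8 and 33.3 TPM, and the 3 ranges overlap. Kat8 (MOF), which acetylates lysine 16 of histone H4, was lowest with 15.1, 15.8 and 15.9 TPM. The acetyltransferases Crebbp and Ep300, which the pattern does not take in, stood at 50.4 ± 2.82 and 49.6 ± 2.92 TPM. Of the list of 10 acetyltransferases and partners that holds them, 8 exceeded 10 TPM, from Trrap at 54.6 TPM to Hat1 at 9.26 TPM.

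The zinc-dependent deacetylases fall into classes, and levels ranged widely within each. In class I, the nuclear enzymes, Hdac1 had 46.3, 45.1 and 45.6 TPM in replicates 1, 2 and 3. Hdac2, which shares the Sin3, NuRD and CoREST complexes with Hdac1, had 22.7, 23.1 and 22.3 TPM. Hdac3, the NCoR enzyme, had 18.3, 16.3 and 16.0 TPM. No library overlapped between these 3, and Hdac8, which lies on the X chromosome, was lowest with 7.62, 6.46 and 6.82 TPM. Of the corepressor genes, which encode partners of these enzymes, 11 of 12 exceeded 10 TPM, from Ncor1 at 152 TPM to Sap30 at 2.34 TPM.

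Class IIa, whose members shuttle between nucleus and cytoplasm and bind MEF2 factors, held the highest deacetylase. Hdac7, known from thymocyte development, had 65.0, 63.8 and 56.7 TPM in replicates 1, 2 and 3. Hdac4 had 43.0, 33.6 and 41.4 TPM. Hdac5 had 27.2, 29.0 and 27.8 TPM. The fourth gene of the class, Hdac9, stayed under the detection level with 0.99, 0.86 and 0.63 TPM from 43, 25 and 37 estimated counts. In classes IIb and IV, Hdac10 had 8.10, 9.48 and 8.28 TPM. Hdac6, the X-linked tubulin deacetylase, had 4.21, 4.00 and 4.01 TPM. Hdac11, the class IV enzyme, had 0.81, 0.42 and 0.18 TPM from 26, 12 and 5 estimated counts, for which exact 95% Poisson intervals ran from 17.0 to 38.1, 6.20 to 20.96 and 1.62 to 11.7. That list had the lowest level of the 13 roles, 2.34 ± 0.03.

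Of the sirtuins, deacylases that use NAD, the nucleolar Sirt7 was highest with 47.4, 48.1 and 47.3 TPM in replicates 1, 2 and 3. The mainly cytoplasmic Sirt2 had 20.7, 22.1 and 21.4 TPM. Sirt1, the nuclear enzyme, had 14.6, 16.5 and 16.8 TPM, below Sirt2 in every library. Sirt6, which acts on chromatin, averaged 8.58 ± 0.348 TPM. In the gene table the 3 mitochondrial members were the lowest, with Sirt4 at 4.51 ± 1.11 TPM, Sirt5 at 3.89 ± 0.753 TPM and Sirt3 at 3.16, 3.09 and 3.03 TPM. Their ranges touched only between Sirt4 and Sirt5. In the second quantification, a further deposited transcript table summed per gene, Sirt5 averaged 24.8 ± 3.94 TPM, beside 25.2 ± 2.56 TPM for Sirt1 and 11.3 ± 1.18 TPM for Sirt6, so its place among the lowest did not hold there.

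Other genes of the pathway, in lists drawn up by function, were mostly present as well. All 8 COMPASS partners of the H3K4 enzymes exceeded 10 TPM, from Wdr82 at 52.8 TPM to Men1 at 15.5 TPM. So did 8 of 10 other methyltransferases, from Ehmt2, the H3K9 enzyme G9a, at 44.1 TPM down to Suv39h2 at 0.59 TPM. Of 10 readers of acetyl- or methyl-lysine 8 did, with Brd2 highest at 121 TPM and Phf6 lowest at 10.1 TPM by its mean. Over the 6 lists, 51 of 59 genes exceeded 10 TPM.

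Related enzymes were set against each other within each library, to see which of a pair carries more transcript. Of 21 pairs, 20 had ranges of TPM that did not overlap, and the difference of log2(TPM + 1) had the same sign in all 3 libraries in all 21. The widest gap was between Prmt1 and Prmt8, 5.76 ± 0.12, where Prmt8 is listed at 0 and the value depends on the added 1. Hdac5 exceeded Hdac9 by 3.99 ± 0.16, or 15.9-fold of TPM + 1. Hdac9 lay under 1 TPM, so this value too depends on the added 1, and it was 4.94 ± 0.31 with a pseudocount of 0.1 and 2.26 ± 0.30 on protein-coding entries. Nsd3 exceeded Nsd2 by 3.49 ± 0.18, or 11.2-fold, and Nsd1 exceeded Nsd2 by 2.55 ± 0.20, or 5.86-fold. Kdm2a exceeded Kdm2b by 1.42 ± 0.24, where Kdm2b had 22.8, 16.0 and 17.9 TPM. Ezh1 exceeded Ezh2 by 1.12 ± 0.11, and by 1.65 ± 0.49 on protein-coding entries. Hdac1 exceeded Hdac2 by 0.98 ± 0.04, but by 0.23 ± 0.16 on protein-coding entries. Kat2a was below Kat2b by a difference of -0.79 ± 0.25, and Kmt2c below Kmt2d by one of -0.60 ± 0.04.

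The closest pairs were Setdb1 with Setdb2, whose ranges overlap (0.13 ± 0.15), Kmt2a with Kmt2b (0.17 ± 0.06) and Kdm4a with Kdm4b (-0.20 ± 0.09). Kmt2a had 55.5, 51.5 and 54.9 TPM, and Kmt2b 48.3, 47.7 and 47.0 TPM. Kdm4a had 20.9, 19.8 and 19.5 TPM, and Kdm4b, a demethylase of the same H3K9 and H3K36 marks, 23.0, 24.5 and 22.3 TPM. The exact two-sided sign-flip permutation test gave p = 0.25 for every pair, below which 3 libraries cannot go, and 0.25 after Benjamini-Hochberg adjustment over the 21. Some orders depended on which transcripts were counted. In the second quantification Kmt2a minus Kmt2b was -0.01 ± 0.15, and on protein-coding entries it was 0.94. On protein-coding entries alone, Kdm3a minus Kdm3b was -0.29 ± 0.14 in place of 0.53 ± 0.08, and Hdac7 minus Hdac4 was -0.16 ± 0.42 in place of 0.64 ± 0.24. On the same entries Setdb1 minus Setdb2 was -0.19 ± 0.12 and Kdm5a minus Kdm5b was -0.03 ± 0.22.

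**Figure D2:**
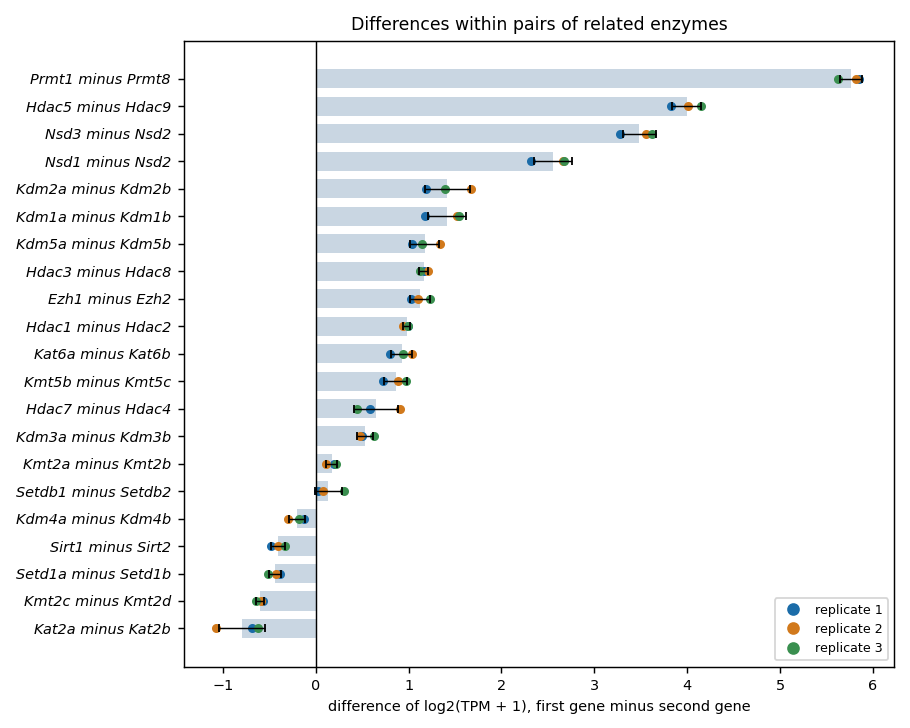
Differences within 21 pairs of related enzymes. Bars give the mean difference of log2(TPM + 1), first gene minus second gene, black lines the SD and points the 3 libraries. The bars run from 5.76 for Prmt1 minus Prmt8 to -0.79 for Kat2a minus Kat2b, and the points of a pair share a sign.

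Summed by mark over members only, in groupings chosen after the values were seen, writers outweighed erasers for H3K4 and H3K36. Among the members summed, erasers outweighed writers for H3K9. Kmt2a to Kmt2d, Setd1a and Setd1b, without Kmt2e and Setd7, summed to 308 ± 8.50 TPM, against 103 ± 3.43 TPM for Kdm1a, Kdm1b, Kdm5a and Kdm5b, with Kdm5c not counted. Their ratio was 2.98 ± 0.146, and it was 2.59 ± 0.146 in the second quantification and 4.83 ± 0.358 on protein-coding entries alone. For H3K36, Setd2 and the 3 NSD genes summed to 231 ± 10.5 TPM, against 130 ± 6.79 TPM for Kdm2a, Kdm2b and the 4 Kdm4 genes. The H3K36 ratio was 1.77 ± 0.075, with 1.45 ± 0.092 in the second quantification and 1.84 ± 0.027 on protein-coding entries. The Kdm4 genes are counted again for H3K9, as is Kdm1a from the H3K4 sum, so the sums are not independent. For H3K9, Setdb1 and Setdb2 summed to 26.7 ± 1.92 TPM, against 156 ± 5.83 TPM for 7 Kdm genes (Kdm1a, Kdm3a, Kdm3b and the 4 Kdm4 genes). That ratio was 0.171 ± 0.015, with 0.152 ± 0.013 in the second quantification and 0.153 ± 0.017 on protein-coding entries. It leaves out H3K9 writers that the symbol rule does not take in, such as Ehmt2, Ehmt1 and Suv39h1 at 44.1, 40.4 and 10.7 TPM. The ratio therefore describes the summed genes and not all writers of the mark. For H3K27, Ezh1 and Ezh2 together had 46.0 ± 3.37 TPM, against 46.2 ± 3.38 TPM for Kdm6b, with Kdm6a not counted. Kdm7a, at 24.1 TPM, was counted among the erasers of neither H3K27 nor H3K9. The H3K27 ratio lay on either side of 1, at 1.16 ± 0.088 in the second quantification and 0.800 ± 0.036 on protein-coding entries. The 7 Kat genes summed to 192 ± 13.3 TPM, against 235 ± 7.73 TPM for the 11 Hdac genes. The ratio of 0.816 ± 0.045 became 1.00 ± 0.060 on protein-coding entries. These sums leave out the acetyltransferases Crebbp and Ep300, at 50.4 and 49.6 TPM. They also leave out the 7 sirtuins, which summed to 105 ± 3.48 TPM, so the ratio describes the summed genes only.

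The libraries gave similar levels of most of these enzymes. The median over detected members of the coefficient of variation of TPM was 6.29%, beside 8.58% for all detected protein-coding genes. Detected members also had the higher median TPM, 23.3 beside 13.6, which was not adjusted for. In 10 of them the coefficient exceeded 15%. In an edgeR quasi-likelihood fit over all genes, which asks whether a gene varied more between libraries than its abundance predicts, 0 of 68 members tested were called at an adjusted p of 0.05, beside 75 of 13280 genes, or 0.565%. At an unadjusted p under 0.05 there were 3 members, 4.41% of those tested, beside 5.69% of all genes, and DESeq2's marking of outlying dispersion took in 0 members. The smallest adjusted p of a member was 0.609, and Prmt8, Kdm4d and Hdac11 were too low to be tested. The 3 members were Kdm3b, Nsd2 and Ezh2. Kdm3b, an H3K9 demethylase, had counts scaled to library size (CPM) of 161, 136 and 162 in replicates 1, 2 and 3, lowest in replicate 2. Nsd2 had 43.1, 33.8 and 33.8 CPM, highest in replicate 1. Ezh2 had 24.0, 22.7 and 17.2 CPM. The cycling-cell markers Mki67 and Top2a were among the genes called, and the 5 markers of that list summed to 26.8, 17.4 and 11.3 TPM in the same libraries. Their part in the values of Ezh2 and Nsd2 was not tested. Summed markers of B cells came to 13.8, 18.2 and 10.9 TPM and of erythroid cells to 40.8, 63.8 and 32.7 TPM, both highest in replicate 2. Those of natural killer cells came to 67.6, 68.8 and 62.3 TPM, with Klrd1 alone at 52.1 TPM by its mean. Markers of monocytes and macrophages summed to 30.1, 24.4 and 27.1 TPM. The 10 T-cell markers summed to 3271, 3221 and 3017 TPM.

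Several of the enzymes are spliced in more than 1 way inside the coding sequence. The annotation (GENCODE M21, mm10) holds 61 coding exons in 34 members that some entries include and others skip. Of these, 16 in 13 members were used both ways, which means that inclusion lay between 10% and 90% in every library and in both transcript tables, with at least 5 TPM over the entries in question. Inclusion is the share of TPM on entries that splice the exon in, out of all that splice it in or skip it. The Kmt2c exons of 105 and 120 bases rest on the same entries, Kmt2c-201 and Kmt2c-205, and so share the same values. Of the 16 exons, 8 are shown as examples. Each of the 16 lies within the coding sequence of at least 1 entry that includes it. The entries that skip it are not always classed as protein coding. Those leading the skip of the Hdac10 exon of 69 bases and the Kat7 exon of 148 bases are processed transcripts. Also shown are an exon of Kdm1a that was not used and the splice site of an intron kept in an annotated Hdac5 entry. Capitals mark the exon and lower case 12 bases of the coding exons joined on either side, 5′ to 3′, from the mm10 reference, which is C57BL/6, so the CAST/EiJ allele may differ.
Kdm1a exon of 60 bases (chr4:136582040-136582099, minus strand): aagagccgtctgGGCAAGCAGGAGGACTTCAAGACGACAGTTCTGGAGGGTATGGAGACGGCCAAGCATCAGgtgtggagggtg
Kdm1a exon of 12 bases (chr4:136563438-136563449, minus strand): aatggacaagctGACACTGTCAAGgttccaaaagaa
Kat5 exon of 156 bases (chr19:5608802-5608957, minus strand): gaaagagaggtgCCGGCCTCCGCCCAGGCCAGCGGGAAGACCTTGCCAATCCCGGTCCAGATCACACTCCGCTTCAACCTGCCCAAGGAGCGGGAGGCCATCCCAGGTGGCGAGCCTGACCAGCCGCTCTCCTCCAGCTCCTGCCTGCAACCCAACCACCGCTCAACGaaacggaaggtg
Hdac7 exon of 111 bases (chr15:97808660-97808770, minus strand): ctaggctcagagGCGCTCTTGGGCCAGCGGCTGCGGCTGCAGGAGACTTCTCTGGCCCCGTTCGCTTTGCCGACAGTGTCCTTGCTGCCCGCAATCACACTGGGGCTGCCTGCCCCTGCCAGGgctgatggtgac
Ezh2 exon of 126 bases (chr6:47541845-47541970, minus strand): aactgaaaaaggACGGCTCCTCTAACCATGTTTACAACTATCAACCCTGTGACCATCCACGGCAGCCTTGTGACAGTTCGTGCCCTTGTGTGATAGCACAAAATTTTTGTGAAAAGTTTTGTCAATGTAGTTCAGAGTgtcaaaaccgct
Nsd3 exon of 147 bases (chr8:25691015-25691161, plus strand): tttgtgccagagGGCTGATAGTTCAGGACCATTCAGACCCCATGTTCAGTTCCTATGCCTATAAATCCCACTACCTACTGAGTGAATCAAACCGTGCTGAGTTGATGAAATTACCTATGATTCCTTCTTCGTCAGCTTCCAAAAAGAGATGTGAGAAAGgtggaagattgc
Kmt2e exon of 118 bases (chr5:23481209-23481326, plus strand): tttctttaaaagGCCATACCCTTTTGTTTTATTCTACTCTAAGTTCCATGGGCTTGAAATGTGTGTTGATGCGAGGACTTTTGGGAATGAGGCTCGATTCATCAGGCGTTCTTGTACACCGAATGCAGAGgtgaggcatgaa
Kdm5a exon of 115 bases (chr6:120408245-120408359, plus strand): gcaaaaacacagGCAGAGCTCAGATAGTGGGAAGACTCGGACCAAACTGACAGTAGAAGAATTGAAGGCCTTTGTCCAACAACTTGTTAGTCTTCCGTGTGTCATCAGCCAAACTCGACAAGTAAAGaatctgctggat
Setd3 exon of 149 bases (chr12:108160233-108160381, minus strand): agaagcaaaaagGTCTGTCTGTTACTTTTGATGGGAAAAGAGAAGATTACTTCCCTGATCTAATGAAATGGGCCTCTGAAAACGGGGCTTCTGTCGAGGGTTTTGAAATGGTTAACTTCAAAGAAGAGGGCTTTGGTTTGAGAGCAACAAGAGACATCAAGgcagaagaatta

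In Kdm1a the exon of 60 bases, whose length is a multiple of 3, was included at 70.3%, 52.7% and 68.6% in replicates 1, 2 and 3, and at 66.8% ± 10.96 in the second table. The entry that includes it, Kdm1a-202, had 12.1, 9.69 and 12.1 TPM, and the entries that skip it summed to 5.08, 8.68 and 5.55 TPM, so both forms were present in every library. The exon of 12 bases, known from the neuronal form of the enzyme, was listed at 0 TPM in all 3 libraries in both tables, beside 17.1, 18.4 and 17.7 TPM on entries that skip it. It was picked out after its values were seen.

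The exon of 156 bases in Kat5 separates the longer TIP60 form from the shorter one that lacks it. It was included at 34.9%, 29.4% and 24.5% in replicates 1, 2 and 3, and at 32.7% ± 2.95 in the second table. The entries that skip it summed to 9.64, 11.2 and 13.6 TPM, and the leading one, Kat5-203, is classed as a retained intron. The leading entry that includes it, Kat5-210, is classed as a target of nonsense-mediated decay. In Hdac7 the exon of 111 bases was included at 30.4%, 25.3% and 36.5%, and at 22.2% ± 3.60 in the second table, and the leading entry that skips it is of the decay class too. Among the exons used both ways, Kat5 and Hdac7 were thus the 2 genes in which skipping prevailed in every library and in both tables. That set leaves out exons that were skipped more strongly, such as the Kdm1a exon of 12 bases.

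The exon of 126 bases in Ezh2 was included at 50.2%, 64.6% and 53.5%, from 3.97, 4.11 and 3.17 TPM on entries that hold it. Its inclusion was 64.0% ± 6.01 in the second table. In Nsd3 the exon of 147 bases reached 85.2%, 89.5% and 86.0%, but 68.5% ± 0.473 in the second table, a gap wider than the spread in either. Of the 16 exons, 11 have a length divisible by 3. The other 5 have not, so skipping shifts the frame if the other coding exons are kept. In Kmt2e the exon of 118 bases was included at 70.6%, 70.8% and 70.8% in replicates 1, 2 and 3, and at 70.3% ± 0.685 in the second table. The Kdm5a exon of 115 bases was included at 57.6%, 60.5% and 59.2%, but at 51.8% ± 1.63 in the second table. The Setd3 exon of 149 bases was included at 85.5%, 80.3% and 87.6%, and at 83.8% ± 3.35 in the second table. For these 3 the leading entry that skips the exon is classed by the annotation as a target of nonsense-mediated decay. The Kmt2e entry of that class had 14.97, 15.9 and 15.2 TPM.

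**Figure D3:**
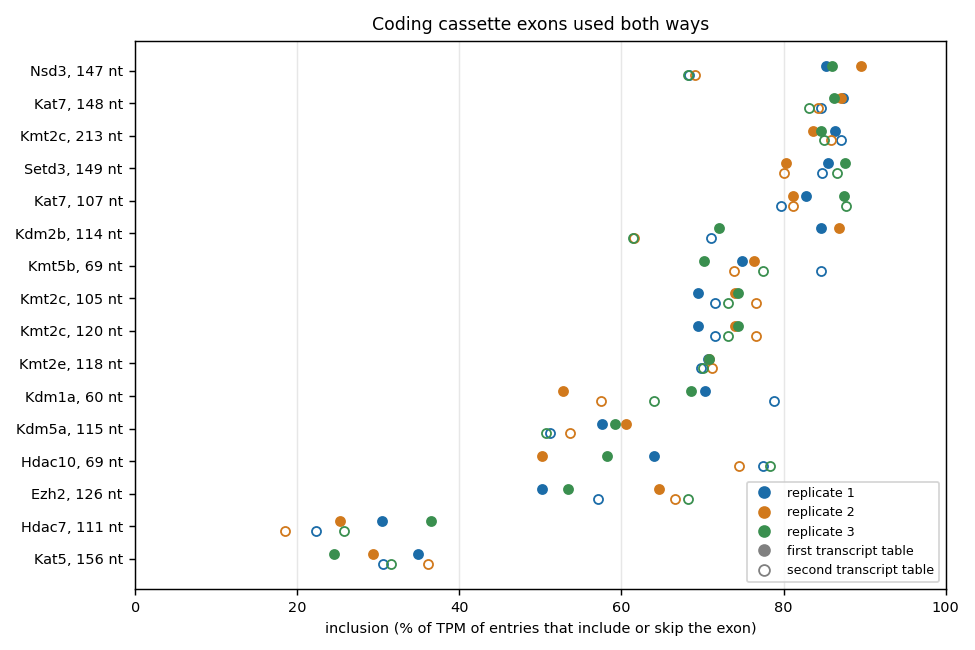
Inclusion of the 16 coding exons used both ways. Filled points are the first and open points the second transcript table, coloured by library, and the x axis is the share of TPM that includes the exon in percent. Kat5 and Hdac7 lie at the left with 18.5% to 36.5%, Kmt2e shows the tightest agreement between tables, and Nsd3, Kdm2b and Hdac10 the widest gaps.

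Much of the RNA of these genes sat on entries that the annotation does not class as protein coding. The 71 genes have 606 transcript entries, of which 278 are protein coding, 182 retained intron, 93 processed transcript and 53 targets of nonsense-mediated decay. Over the 67 detected members, the median share of TPM on protein-coding entries was 69.7% ± 1.07, beside 73.8% ± 0.360 over all detected protein-coding genes. In the second table it was 63.2% ± 2.80, beside 71.2% ± 0.343. The median share on retained-intron entries was 23.0% ± 3.26 in members, beside 10.6% ± 0.407 in all detected protein-coding genes. Retained-intron entries are annotated for 79.1% of these members, beside 62.6% of all detected protein-coding genes.

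In 15 members less than 50% of the TPM fell on protein-coding entries, or 22.4%, beside 21.9% of all detected protein-coding genes. For 12 of the 15 this held in both tables. Sirt4 had the lowest share, 9.30%, 7.25% and 20.4% in replicates 1, 2 and 3, with the rest on retained-intron entries, from 45, 58 and 53 estimated counts for the gene. Its leading entry, Sirt4-203, had 1.10, 2.04 and 1.56 TPM. Hdac10 had 29.9%, 3.91% and 22.7%, led by the processed transcript Hdac10-208 with 1.75, 2.18 and 1.86 TPM. The shares of both genes differed widely between libraries. Hdac5 had 21.98%, 24.9% and 28.8% on protein-coding entries and 52.7%, 54.4% and 59.1% on retained-intron entries. Its leading entry in the first table, Hdac5-211, had 2.17, 4.38 and 5.79 TPM, or 14.6% ± 6.44 of the gene. In the second table that entry held 3.64% ± 3.32, and the processed transcript Hdac5-206 led with 19.9% ± 6.01. Hdac5-211 keeps an intron of 120 bases (mm10 chromosome 11, 102196118 to 102196237). The window of 40 bases around the start of that intron is given with the GT of the splice site in capitals, after 20 coding bases.
Hdac5 splice site (chr11:102196218-102196257, minus strand): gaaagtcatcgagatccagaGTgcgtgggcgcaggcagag

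The other members led by a retained-intron entry were Hdac7 (Hdac7-211 with 13.4, 14.3 and 12.3 TPM), Kmt5c (Kmt5c-205 with 7.5, 7.41 and 7.78 TPM) and Kat6b (Kat6b-205 with 3.69, 2.49 and 3.62 TPM). In the first table, 6 of 67 members, 8.96%, were led by an entry that is not protein coding, beside 14.0% of all detected protein-coding genes. The 2 tables named the same leading entry for 49 members, 73.1%, beside 74.3% of all detected protein-coding genes. In the second table, 14.9% of the members (10) were led by a non-coding entry, beside 17.2% of all detected protein-coding genes. Hdac7, Hdac10 and Kmt5c led with a protein-coding entry there, while Hdac6, Kat5, Kdm2b, Kdm5a, Prmt6, Setd4 and Sirt1, led by a coding entry in the first table, had a non-coding one. The Kdm5a gene had 30.9% ± 3.59 on protein-coding entries, out of a gene level of 48.6 TPM.

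**Figure D4:**
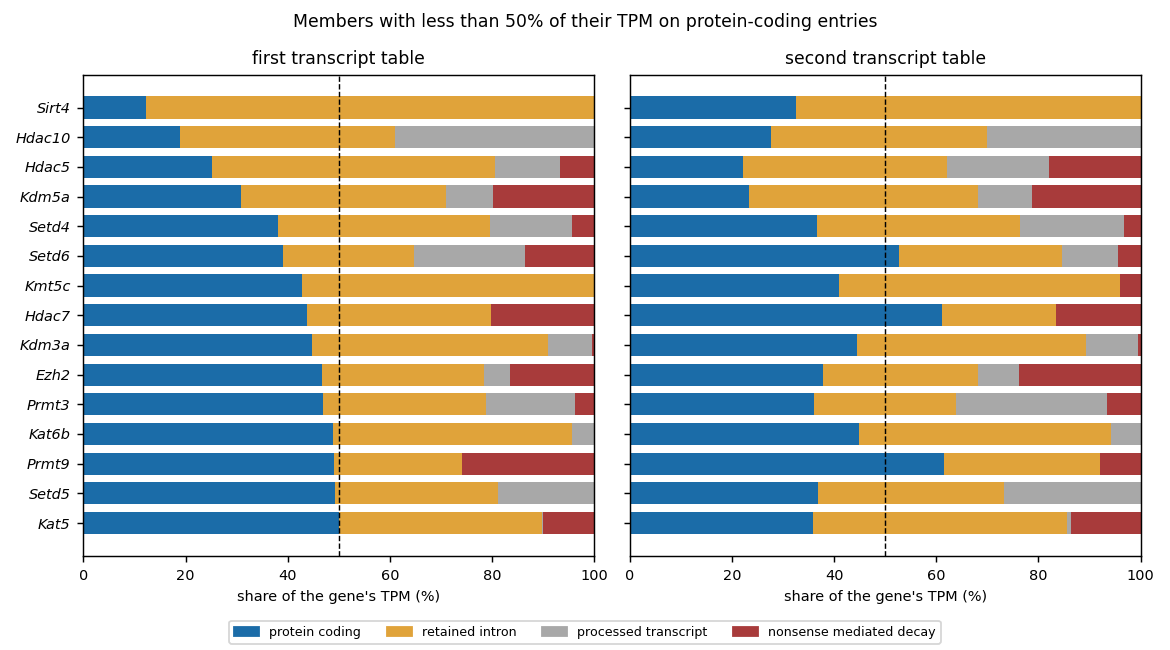
Members with less than 50% of TPM on protein-coding entries. Bars give the mean share over 3 libraries of each annotation class in percent, left for the first and right for the second transcript table, and the dashed line is 50%. Sirt4, Hdac10 and Hdac5 are lowest in the first table, and Setd6, Hdac7 and Prmt9 exceed 50% in the second.

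The levels so far come from the gene table, and the second quantification gave somewhat higher ones. On the log2(TPM + 1) scale the second quantification exceeded the gene table by 0.37 in the median over detected members, beside 0.35 over all detected protein-coding genes, or 1.27-fold. Within the 5th to 95th percentiles of all detected protein-coding genes, 0.03 to 0.79, lay 65 of the 67 members. Sirt5 (ENSMUSG00000054021.6, mm10 chromosome 13, 43365496 to 43395203), the mitochondrial desuccinylase, stood apart at 2.40 ± 0.18. It had 27.5, 26.7 and 20.3 TPM in replicates 1, 2 and 3 in the second quantification, against 3.68, 4.73 and 3.27 TPM in the gene table. The reads assigned to it were 615, 579 and 472 against 78, 73 and 75. In the second table the entries Sirt5-203 and Sirt5-206 held 10.4 and 8.70 TPM, and in the first they were listed at 0.033 and 0 TPM, with Sirt5-201 leading at 2.39 TPM. A ratio as large was found for 12 of 9835 detected protein-coding genes, Sirt5 among them. No other gene at 1 TPM or more overlapped it, and the source of the gap was not tested.

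The next largest ratios were those of Kdm2a (0.79), Hdac3 (0.75) and Prmt3 (0.72). Kdm2a had 92.9, 87.1 and 90.8 TPM in the second quantification. Hdac3 had 35.7, 27.04 and 24.96 TPM there. Kat2b was the only detected member with a lower second value, -0.09 ± 0.10, with 24.2, 34.2 and 25.1 TPM against 28.0, 35.4 and 25.5 TPM in the gene table. Hdac5 (0.04) came next among the detected members, and Kdm4d, under the detection level, was also at 0.04. Kat2b was highest in replicate 2 in both tables, yet its scaled counts were even, at 56.6, 56.2 and 53.5 CPM. Its entry Kat2b-204, of 439 bases, had 3.56, 7.28 and 3.29 TPM in the first transcript table.

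**Figure D5:**
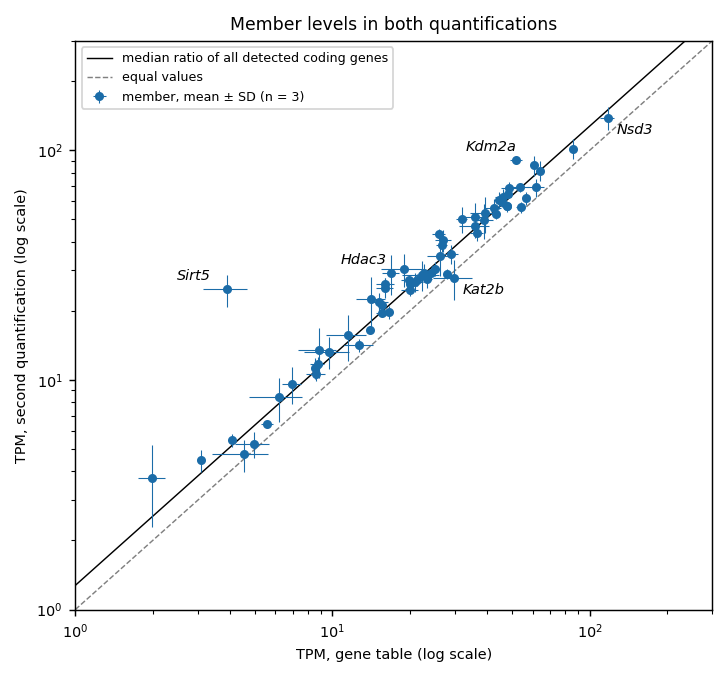
Mean TPM of the 67 detected members in the second quantification (y) and the gene table (x), both on log axes, with SDs over 3 libraries. The solid line is the median ratio of all detected protein-coding genes, 1.27-fold, and the dashed line marks equal values. Sirt5 lies far above both lines, and Kat2b lies below them.

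The deposited posterior SD of the count, which grows where reads could belong to several genes, was above 0 for 9 members and at most 1.96% of the count, for Hdac1. Genes that overlap on the genome are a separate limit. For 21 members another gene at 1 TPM or more overlapped the locus, and in 11 exons overlapped on the opposite strand. The longest overlaps were those of Kmt2e with Srpk2 (972 bases), Kdm2b with Rnf34 (627 bases) and Kdm1b with Dek (505 bases). Sirt3, at 3.09 TPM, shares 418 bases with Ric8a, which stood at 37.9 TPM. The library kit keeps strand, but whether the counting used strand is not stated in the labels or headers, so reads of overlapping genes cannot be told apart here.

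The promoters of the enzymes held about as many CG as those of other detected genes. RefSeq windows (GRCm38.p6) from 250 bases before to 50 after the start were matched for 56 of the 71 members, and where a gene had several windows, as for 15 members, the one with most CG was taken, for members and all other genes alike. They held a median of 23.5 CG, beside 23 for all detected protein-coding genes and 8 for all genes in the table, and 53 of the 56 held 10 or more, 94.6% beside 88.4% of detected protein-coding genes. The exceptions were Setd5 with 1 CG, Hdac9 with 3 and Hdac8 with 6. The letters GGGCGG, on either strand, were found in 36 of the 56, 64.3% beside 68.9%, and the letters CCGGAAG in 11, 19.6% beside 22.4%. TATAAA was found in 2, 3.57% beside 5.82%. The windows of Prmt8 and Hdac9 are shown because both genes lay below the detection level with many CG in the one and few in the other. They are printed with each CG in capitals, 44 in the window of Prmt8 and 3 in that of Hdac9. The Hdac9 window lies at a start inside the gene, which runs from 34047580 to 34917095 on the minus strand. The table's other Hdac9 window, at the outer start, held 0 CG.
Prmt8 promoter window (chr6:127769106-127769405, minus strand): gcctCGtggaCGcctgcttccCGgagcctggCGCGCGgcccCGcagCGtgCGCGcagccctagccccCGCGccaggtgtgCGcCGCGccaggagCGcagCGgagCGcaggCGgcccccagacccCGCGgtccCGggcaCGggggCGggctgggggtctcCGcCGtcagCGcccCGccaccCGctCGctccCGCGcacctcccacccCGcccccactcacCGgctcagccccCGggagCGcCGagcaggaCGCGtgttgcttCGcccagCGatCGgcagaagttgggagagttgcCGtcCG
Hdac9 promoter window (chr12:34528840-34529139, minus strand): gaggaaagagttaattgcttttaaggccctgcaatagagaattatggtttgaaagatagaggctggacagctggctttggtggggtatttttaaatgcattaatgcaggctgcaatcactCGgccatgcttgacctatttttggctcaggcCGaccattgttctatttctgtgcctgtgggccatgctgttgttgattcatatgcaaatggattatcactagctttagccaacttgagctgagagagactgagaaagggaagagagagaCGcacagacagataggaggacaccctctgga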

How the data were processed

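Estimated counts, TPM and FPKM per gene and per transcript entry were deposited by the authors in tables of which 3 per library were used, per the file headers. The deposited README files name the assembly mm10 and the annotation M21 of GENCODE, and the aligner and quantifiers are not stated there or in the labels. A further deposited transcript table, the second quantification, holds estimated counts and TPM and was summed per gene. The first transcript table gave the entries' TPM in the first quantification. The members, role lists, pairs, partner and marker lists were chosen with earlier results of these data known. Each member may be named. Values per library are given for the 3 highest and the lowest of each role, the widest and closest pairs, the largest ratios between quantifications and members led by a non-coding entry.

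The spread test used edgeR 4.0.16 in R 4.3.3 with an intercept only: estimated counts rounded to whole numbers, filterByExpr, TMM, a robust fit, an F test of residual dispersion against the trend and Benjamini-Hochberg adjustment at 0.05 over 13280 genes. It was also run on simulated counts with a common dispersion for all genes. That run does not show how much spread the test would miss in these data. Entries that are not genes held at most 0.318% of the counts and were left out. Levels of a list are medians of log2(TPM + 1) per library. Pairs were tested by exact sign-flip permutation. Results were recomputed, where each applied, with protein-coding entries only, FPKM, the second quantification, posterior means, a pseudocount of 0.1, other filters and detection levels, DESeq2 1.42.0, without robust fitting, and with replicates left out in turn. The sums by mark and their alternatives were added after values were seen. Python 3.11.15 with pandas 2.3.3 and scipy 1.17.1 did the rest. Alleles were not analysed here.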

Additional observations from a re-analysis of the deposited data

How the results depend on the processing

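The number of members detected was 65 to 68 in both quantifications, in FPKM, as posterior mean TPM, on protein-coding entries and at 0.5 TPM, and it was 61 at a minimum of 5 TPM and 52 at 10 TPM. It was 67 with any replicate left out. Pairs with separate ranges numbered 17 to 21 under all alternatives run. Of 168 pair differences recomputed, 5 changed sign: on protein-coding entries Kdm3a minus Kdm3b (-0.29), Hdac7 minus Hdac4 (-0.16), Kdm5a minus Kdm5b (-0.027) and Setdb1 minus Setdb2 (-0.19), and in the second quantification Kmt2a minus Kmt2b (-0.012). Lists above the level of detected coding genes numbered 9 or 10 of 13 throughout. Yet of 126 recomputed levels, of the lists and of detected coding genes, 41 moved by at least their SD over libraries. No member was called for spread in any fit, while the count over all genes was 75 and became 303 with no filter on low counts, 28 with a non-robust fit, 202 by DESeq2's marking and 35 to 85 with a replicate left out. It was 43 without replicate 1 and 35 without replicate 3. The median coding-entry share of 69.7% was 63.2% in the second quantification and 69.1% to 70.0% with a replicate left out. The median log2 ratio of the quantifications was 0.36 by library and 0.28 on protein-coding entries. The causes were not tested. No paired analysis was possible because there is 1 group. The added 1 matters for genes under 1 TPM. Low counts limit Prmt8, Kdm4d, Hdac11, Hdac9 and Sirt4.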
